A study of Vigna subterranea with 10 samples.

Results

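Plant cells carry news of cold, drought and attack through calcium and through chains of protein kinases. A rise in cytosolic calcium is read by calmodulin and by kinases with a calmodulin-like domain of their own, receptor-like kinases sense signals at the cell surface, mitogen-activated protein (MAP) kinases pass them inwards step by step, SnRK kinases answer to energy and water status, and 14-3-3 proteins bind the phosphorylated targets. Much of this system is set by calcium binding and phosphorylation, which an expression array does not measure. The transcripts of these proteins were followed here in bambara groundnut (Vigna subterranea) leaflets.

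Members were the probe sets whose single gene symbol, in the annotation of the Soybean GeneChip, began with CDPK, CPK, CIPK, CBL, CAM, MAPK, MPK, MKK, MMK, RLK, SPK, SNRK1, SARK, PP2C, 14-3-3 or SGF14. The rule found 29 of 36578 probe sets, which carried 19 symbols. They comprised 1 calmodulin-dependent kinase (CAMK1), 3 calcium-dependent protein kinases, 5 probe sets of the MAP kinase cascade, 8 of receptor-like kinases, 6 of SnRK kinases and 6 of 14-3-3 proteins. No symbol of calmodulin, calcineurin B-like proteins, their interacting kinases or protein phosphatases 2C was found, and 4 probe sets that share a matching symbol with other genes were left out. Of the 29 probe sets, 9 were bright, meaning a mean log2 value of at least 10 over the 9 RNA arrays, and 20 were dim. Closest to that limit were SGF14f (10.01), SNRK1 (10.04) and SGF14G (10.06) inside it and SARK (9.14), CDPK-GAMMA (9.04) and SPK-4 (8.88) outside it.

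All RNA came from fully expanded leaflets of the genotype S19-3, with 3 arrays each at 27°C (optimal), 23°C (sub-optimal) and 18°C (very sub-optimal). The same 3 plants were moved from 27°C to 23°C and then to 18°C, so temperature cannot be told apart from sampling order, leaf age and earlier sampling, and the replicate numbers are not tied to plants. The array carries soybean probes, so a probe set may bind transcripts of several related bambara groundnut genes, and the value of a probe set does not say which gene had more transcript. In whole leaflets, fewer cells of a type and less RNA per cell cannot be told apart. Of 14 leaf marker probe sets 7 were bright and 5 had a mean of at least 15, the highest being the light-harvesting gene CAB3 (18.31). The leaf list also held dim probe sets, with a lowest mean of 3.67 and a median of 10.05. None of 4 nodule and 3 of 16 seed marker probe sets were bright, with means up to 6.09 and 11.81.

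None of the 29 signalling probe sets passed adjusted p under 0.05 in any of the 3 comparisons, either in the limma fit that lets the variance follow the level (the variance-trend fit, used throughout unless named) or in the fit with 1 common prior variance (the constant-prior fit). Over all 36578 probe sets the variance-trend fit called 0.776% at 23°C against 27°C, 2.13% at 18°C against 27°C and 0.943% at 18°C against 23°C. At these shares 0 of 29 is close to the background. At unadjusted p under 0.05 the variance-trend fit gave 3, 3 and 4 members, against 9.42%, 12.9% and 10.5% of all probe sets, and the constant-prior fit gave 2, 3 and 2, against 7.69%, 10.6% and 8.37%. The constant-prior fit called 0.00273%, 0.104% and 0.00547% of all probe sets.

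The members did not move as a block. Median differences of the 29 were 0.07 log2 units at 23°C against 27°C, 0.12 at 18°C against 27°C and -0.14 at 18°C against 23°C, beside medians over all probe sets of 0, -0.06 and -0.05. The numbers of members with a higher mean were 18, 15 and 13 of 29 (49.8%, 47.3% and 47.6% of all probe sets). Single leaflets decided the sign of a median. At 18°C against 27°C the median stood at -0.11 without 27°C replicate 2 and at -0.10 without 18°C replicate 3, and at 18°C against 23°C it stood at 0.18 without 18°C replicate 3 and at 0.05 without 23°C replicate 2.

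**Figure D1:**
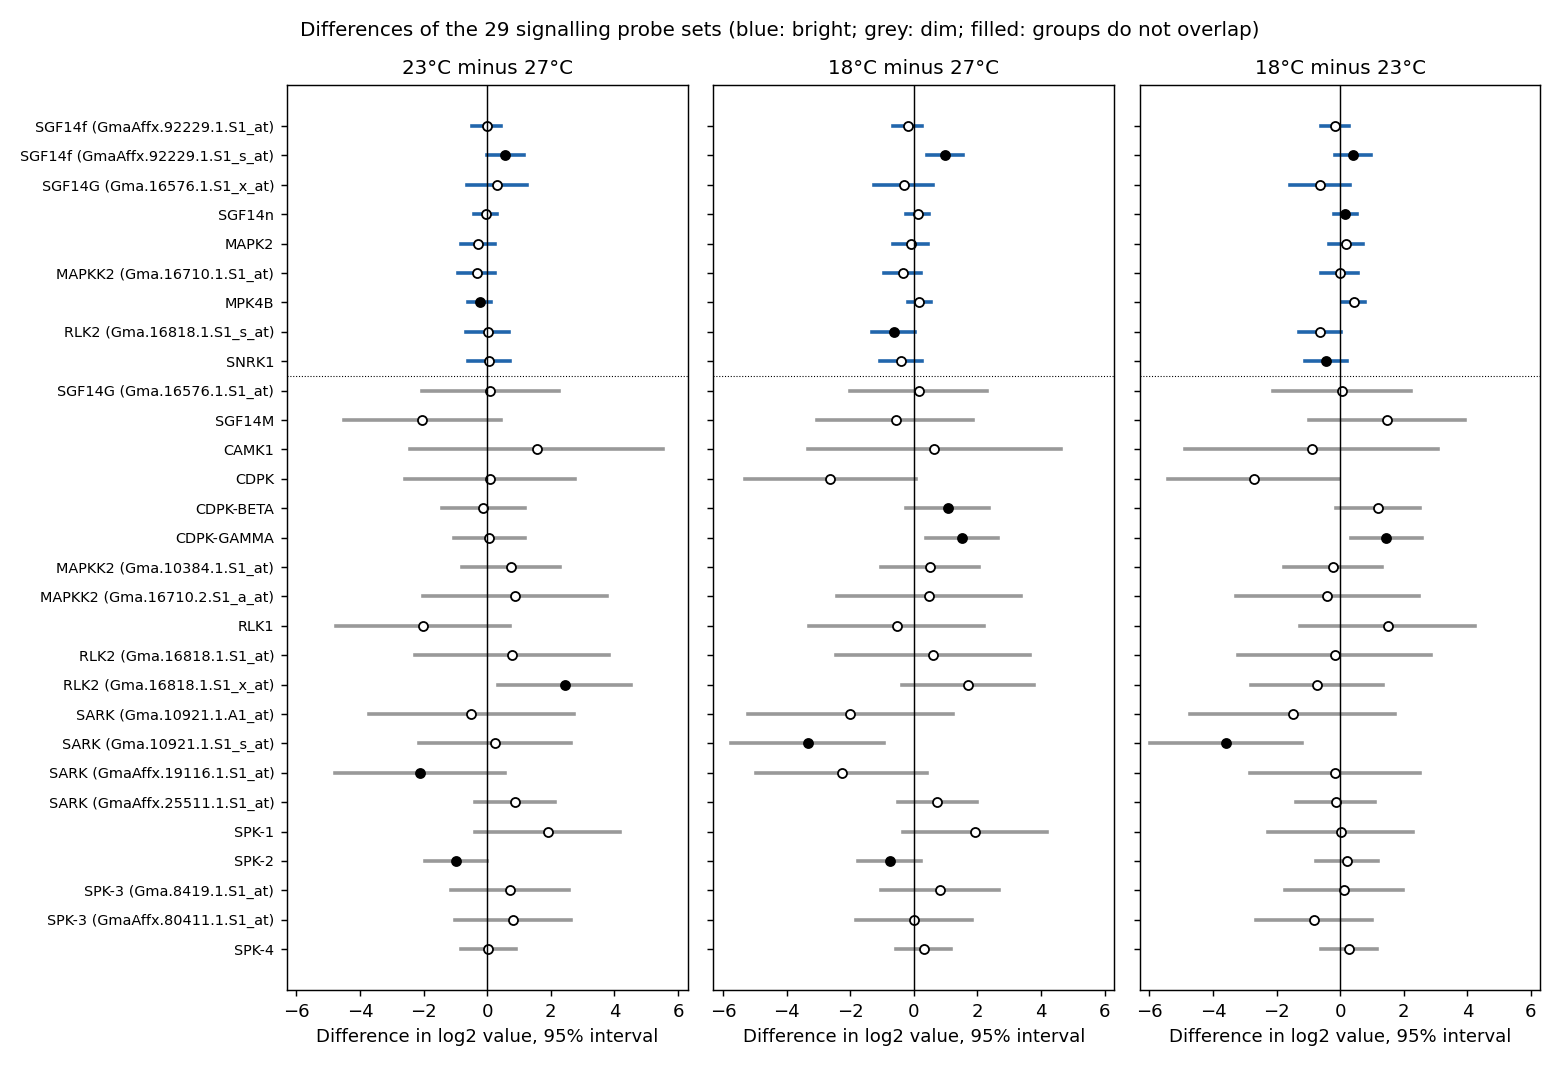
Difference in log2 value between temperatures (x axis, log2 units) for each of the 29 signalling probe sets (y axis), with 95% intervals from the variance-trend limma fit. Blue lines are the 9 bright probe sets, grey lines the 20 dim ones, and filled points mark groups whose 3 arrays do not overlap; none of the 29 passed adjusted p under 0.05.

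The precision differed widely between members. The replicate SD within a temperature had a median of 0.29 log2 units for the 9 bright members (0.14 to 0.60) and 1.32 for the 20 dim ones (0.26 to 2.61), much like the medians of all bright (0.29) and all dim (1.30) probe sets. For bright members the arrays could therefore bound a change. The 95% interval lay within 1 log2 unit of 0 for 7 of 9 at 23°C against 27°C, 5 of 9 at 18°C against 27°C and 6 of 9 at 18°C against 23°C, where 62.7%, 54.7% and 59.9% of all bright probe sets did so. The SE of a difference between temperatures was 0.16 to 0.43 for bright members and 0.40 to 1.81 for dim ones.

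**Figure D2:**
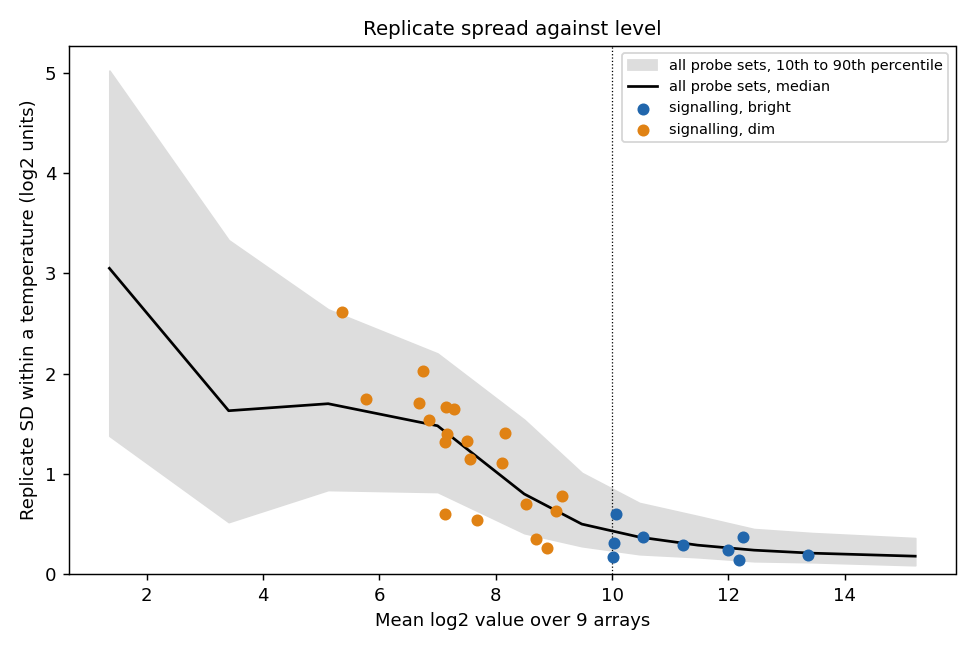
Replicate SD within a temperature (y axis, log2 units) against mean log2 value over 9 arrays (x axis). Points are the 29 signalling probe sets, the line is the median and the band the 10th to 90th percentile of all 36578 probe sets, and the dotted line marks a mean of 10. Bright members had SDs of 0.14 to 0.60 and dim members 0.26 to 2.61.

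The calcium-dependent protein kinases, which bind calcium through a calmodulin-like domain and then phosphorylate their targets, were all dim. The dim probe sets described singly from here on lie outside the rule for naming genes and were chosen after their values had been seen. CDPK-GAMMA gave 8.59, 8.84 and 8.10 at 27°C, 8.44, 9.66 and 7.66 at 23°C and 9.98, 10.29 and 9.83 at 18°C. All 3 leaflets at 18°C lay above all 6 others, while 27°C and 23°C overlapped. The difference at 18°C was 1.52 ± 0.51 (SE, n = 3) against 27°C (95% interval 0.40 to 2.64, adjusted p = 0.196) and 1.45 ± 0.51 against 23°C (0.33 to 2.56, adjusted p = 0.306), so neither passed. CDPK-BETA, another isoform, gave 7.99, 7.82 and 8.80 at 27°C, 9.0, 7.05 and 8.22 at 23°C and 9.21, 9.80 and 8.80 at 18°C. The lowest value at 18°C equalled the highest at 27°C to 2 decimals but lay above it on further digits. These groups were therefore counted as not overlapping, with a difference of 1.07 ± 0.60 (-0.25 to 2.38, adjusted p = 0.518).

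The remaining isoform, listed as CDPK, pointed the other way. It gave 6.78, 8.78 and 8.81 at 27°C, 8.73, 7.68 and 8.22 at 23°C and 2.68, 7.69 and 6.12 at 18°C. The lowest leaflet at 18°C was far below the rest, and the groups overlapped. The difference at 18°C was -2.63 ± 1.22 against 27°C (-5.31 to 0.06, adjusted p = 0.401) and -2.71 ± 1.22 against 23°C (-5.4 to -0.03, adjusted p = 0.472), so neither passed. CAMK1, which by its symbol is a calmodulin-dependent kinase, had a mean of 5.35. It ranged from 2.39 to 8.25 within 27°C alone (SD 3.18, n = 3), so no temperature difference could be read from it.

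The MAP kinase cascade held 3 bright members. MPK4B, named after Arabidopsis MPK4, a MAP kinase known there as a brake on immune responses, gave 13.47, 13.29 and 13.43 at 27°C, 13.27, 13.08 and 13.10 at 23°C and 13.79, 13.24 and 13.68 at 18°C. The 23°C values lay below all 27°C values, and 2 of 3 leaflets at 18°C were higher than every other. The differences were -0.24 ± 0.16 at 23°C (-0.60 to 0.11, adjusted p = 0.718), 0.17 ± 0.16 at 18°C against 27°C (-0.18 to 0.53, adjusted p = 0.748) and 0.42 ± 0.16 from 23°C to 18°C (0.06 to 0.77, adjusted p = 0.378). None passed, and changes of 1 log2 unit lay outside all 3 intervals.

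MAPK2, another MAP kinase, gave 10.98, 11.71 and 11.36 at 27°C, 10.74, 11.26 and 11.19 at 23°C and 11.38, 11.03 and 11.35 at 18°C. The 3 groups overlapped, with differences of -0.29 ± 0.24 (-0.82 to 0.25) at 23°C and -0.10 ± 0.24 (-0.64 to 0.44) at 18°C against 27°C. MAPKK2, a kinase that activates MAP kinases, had 1 bright and 2 dim probe sets. The bright one gave 12.59, 12.72 and 12.14 at 27°C, 11.96, 12.60 and 11.89 at 23°C and 12.20, 12.51 and 11.68 at 18°C. These groups overlapped as well, with differences of -0.33 ± 0.26 (-0.91 to 0.25, adjusted p = 0.790) and -0.35 ± 0.26 (-0.94 to 0.23, adjusted p = 0.661). The dim MAPKK2 probe sets had means of 7.68 and 6.68. Their differences at 23°C were 0.75 ± 0.70 (-0.79 to 2.29) and 0.88 ± 1.32 (-2.02 to 3.77), opposite in sign to the bright one, with overlapping groups.

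**Figure D3:**
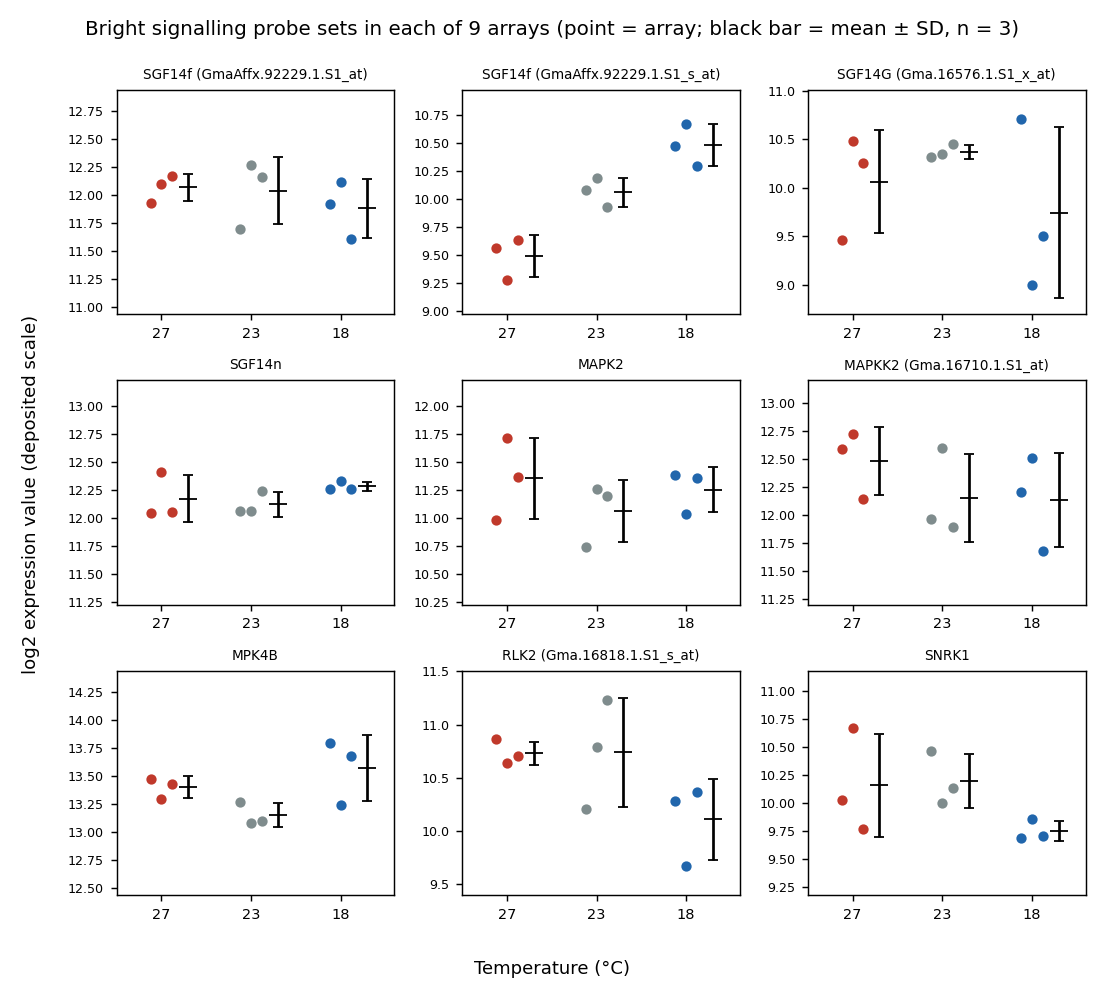
log2 expression value (y axis) of the 9 bright signalling probe sets at 27, 23 and 18°C (x axis); each point is 1 array and the black bar the mean ± SD (n = 3). Each panel has its own y range. The SGF14f probe set ending in _s_at climbs from 9.49 to 10.06 and 10.48 without overlap, while SGF14n stays within 0.37 log2 units over all 9 arrays.

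Receptor-like kinases span the plasma membrane and turn an outside signal into phosphorylation inside. RLK2 was read by 3 probe sets designed on 1 sequence, of which that ending in _s_at, a suffix for probes shared between transcripts, was bright. It gave 10.86, 10.64 and 10.70 at 27°C, 10.21, 10.79 and 11.23 at 23°C and 10.28, 9.67 and 10.37 at 18°C. All 18°C values were below all 27°C values, with a difference of -0.63 ± 0.30 (-1.30 to 0.04, adjusted p = 0.427), and 23°C straddled both groups. The _x_at probe set of RLK2, a suffix for probes that may cross-hybridise, gave 6.45, 7.79 and 4.27 at 27°C, 8.11, 9.10 and 8.58 at 23°C and 7.64, 8.70 and 7.29 at 18°C. At 18°C against 27°C its difference was opposite in sign to that of the _s_at probe set (1.71 ± 0.95, -0.37 to 3.79, adjusted p = 0.51), with overlapping groups. The _x_at values at 23°C lay above all those at 27°C (2.43 ± 0.95, 0.35 to 4.51, adjusted p = 0.423), where the _s_at probe set differed by 0.01 ± 0.30. At 18°C against 23°C both had a lower mean. The third RLK2 probe set (mean 5.77) and RLK1 (mean 7.14) overlapped in every comparison, with SEs of 1.39 and 1.25.

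SARK, a senescence-associated receptor-like kinase known in soybean to promote leaf senescence, was covered by 4 dim probe sets. The _s_at probe set gave 9.12, 6.14 and 9.19 at 27°C, 8.89, 7.37 and 8.93 at 23°C and 5.96, 3.59 and 4.87 at 18°C. All 3 leaflets at 18°C were below the other 6, and the differences, -3.34 ± 1.09 against 27°C (-5.74 to -0.95, adjusted p = 0.183) and -3.59 ± 1.09 against 23°C (-5.99 to -1.20, adjusted p = 0.208), were the largest falls of any member but did not pass. A second probe set gave 8.52, 8.83 and 7.59 at 27°C, 5.36, 7.30 and 5.97 at 23°C and 6.41, 8.22 and 3.50 at 18°C. It was already lower at 23°C without overlap (-2.11 ± 1.22, -4.79 to 0.57, adjusted p = 0.668). The A1_at probe set differed by -1.99 ± 1.46 at 18°C against 27°C, with 1 leaflet at 1.76 and the other two at 7.34 and 7.66. The remaining SARK probe set (mean 9.14) was instead higher at 18°C, by 0.74 ± 0.57, with overlapping groups, so against 27°C the 4 probe sets gave no common direction. Against 23°C all 4 had a lower mean at 18°C. Apart from the _s_at probe set these differences were -1.49 ± 1.46 (-4.71 to 1.73), -0.17 ± 1.22 (-2.84 to 2.51) and -0.14 ± 0.57 (-1.4 to 1.11), with overlapping groups.

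The SnRK group covers SNRK1, a relative of yeast SNF1 that senses low energy, and the stress kinases SPK-1 to SPK-4, of which SPK-1 and SPK-2 are known in soybean to be activated by hyperosmotic stress. SNRK1 gave 10.03, 10.67 and 9.77 at 27°C, 10.47, 10 and 10.14 at 23°C and 9.69, 9.86 and 9.71 at 18°C. The 18°C values were tightly grouped and lay below all 23°C values, but 1 leaflet at 27°C fell among them. The differences were -0.45 ± 0.30 against 23°C (-1.11 to 0.20, adjusted p = 0.674) and -0.41 ± 0.30 against 27°C (-1.06 to 0.25, adjusted p = 0.653).

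SPK-2 gave 9.79, 8.95 and 9.09 at 27°C, 8.14, 8.66 and 8.08 at 23°C and 8.74, 8.27 and 8.54 at 18°C. Every leaflet at 27°C lay above all 6 leaflets at the lower temperatures, with differences of -0.98 ± 0.45 at 23°C (-1.96 to -0.01, adjusted p = 0.526) and -0.76 ± 0.45 at 18°C (-1.74 to 0.22, adjusted p = 0.540); both comparisons share the 27°C arrays. SPK-1 gave 3.69, 7.03 and 8.0 at 27°C, 8.28, 8.22 and 7.94 at 23°C and 7.80, 8.12 and 8.57 at 18°C. Its group differences of 1.90 ± 1.03 and 1.92 ± 1.03 rested largely on the single low leaflet at 27°C. SPK-4 was the steadiest dim member, between 8.57 and 9.22 in all 9 arrays, with differences of 0.03 ± 0.40 and 0.31 ± 0.40. The 2 SPK-3 probe sets overlapped in every comparison and differed by 0.72 ± 0.84 and 0.81 ± 0.83 at 23°C.

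**Figure D4:**
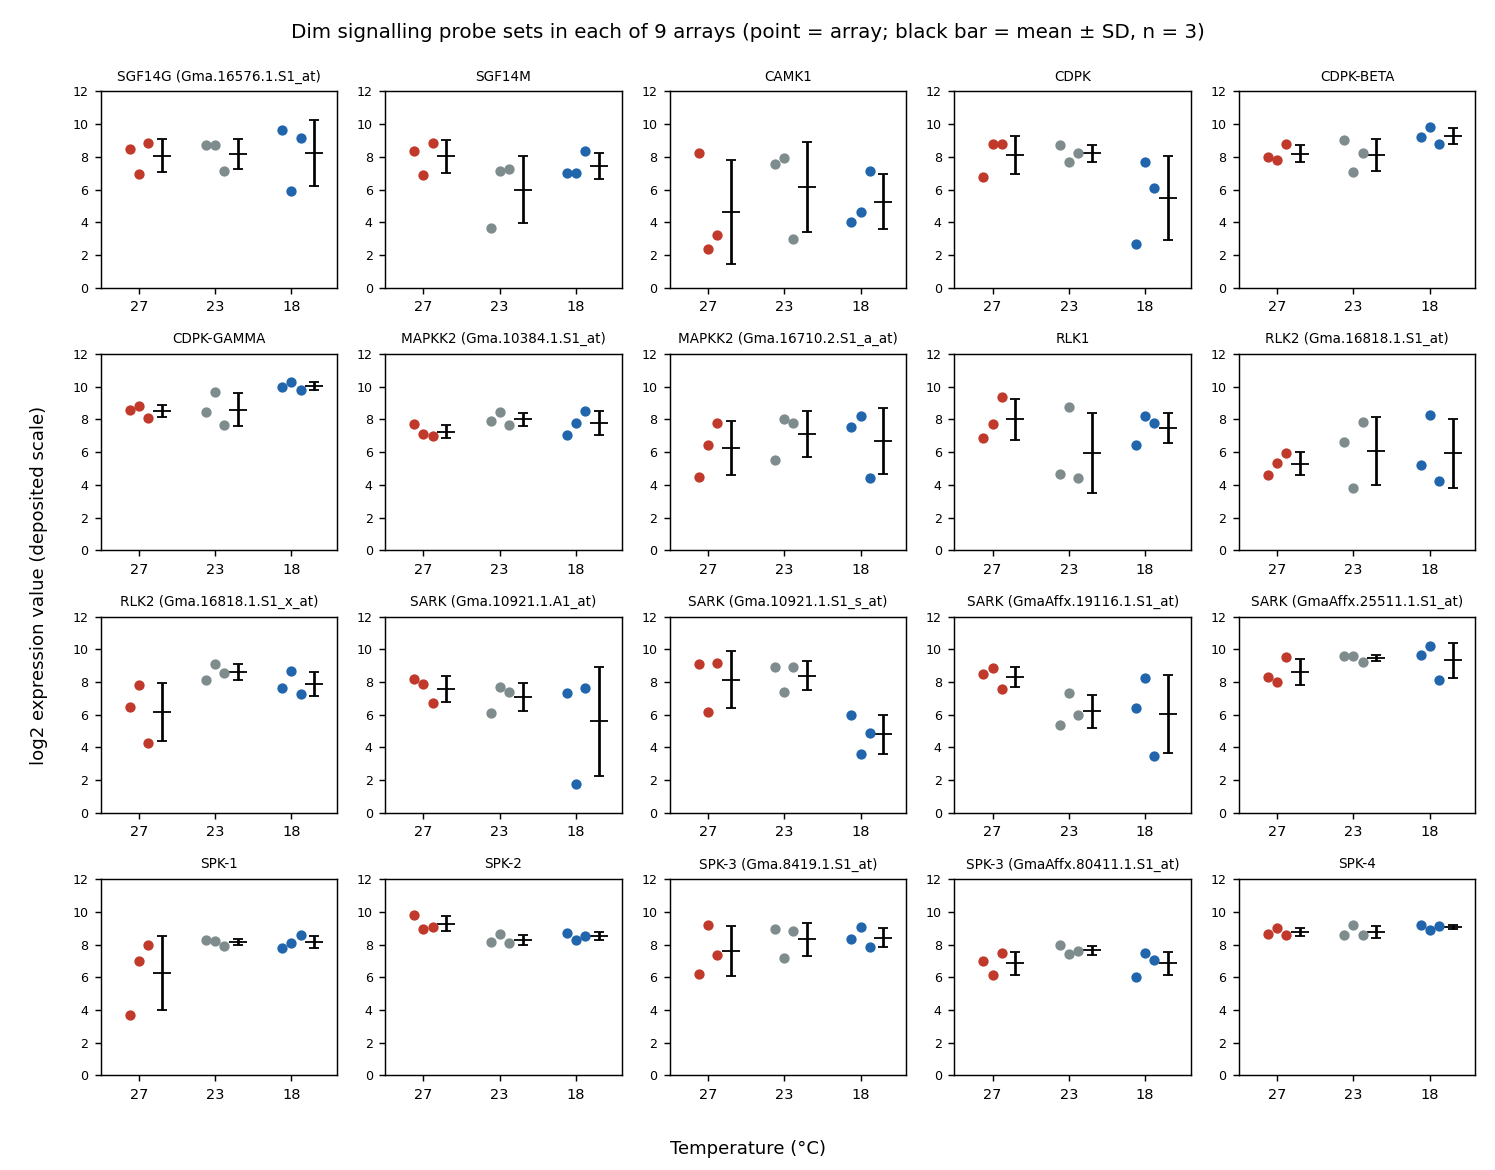
log2 expression value (y axis, 0 to 12 in every panel) of the 20 dim signalling probe sets at 27, 23 and 18°C (x axis); each point is 1 array and the black bar the mean ± SD (n = 3). CDPK-GAMMA is highest and the _s_at probe set of SARK lowest in the 3 arrays at 18°C, whereas CAMK1 spans 2.39 to 8.25 within 27°C.

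The 14-3-3 adaptors, called SGF14 in soybean, held the clearest pattern. The _s_at probe set of SGF14f gave 9.56, 9.28 and 9.63 at 27°C, 10.08, 10.19 and 9.93 at 23°C and 10.47, 10.67 and 10.29 at 18°C. The 3 groups followed one another without overlap, the only member for which this held. Over all probe sets, bright and dim together, 0.454% rose and 0.366% fell in this fully ordered way. The share among bright ones alone was not taken. The difference of this SGF14f probe set was 0.57 ± 0.26 at 23°C (0 to 1.14, adjusted p = 0.526), 0.98 ± 0.26 at 18°C against 27°C (0.41 to 1.55, adjusted p = 0.0896) and 0.41 ± 0.26 from 23°C to 18°C (-0.16 to 0.98, adjusted p = 0.656). It did not pass over all probe sets, but when only the 7017 bright probe sets were tested the rise at 18°C against 27°C did (adjusted p = 0.0195), and this was the 1 setting that called any member. Its mean of 10.01 lies just inside that filter, which it passed only through its values at 23°C and 18°C, since its mean at 27°C was 9.49. The filter thus depended on the rise itself, and that call is no support for it. Over all probe sets the adjusted p was 0.0545 after centring of the arrays and 0.283 in the constant-prior fit.

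The other SGF14f probe set was designed on the same sequence and gave no such rise, with 11.93, 12.10 and 12.17 at 27°C, 11.70, 12.27 and 12.16 at 23°C and 11.92, 12.12 and 11.61 at 18°C. Its groups overlapped, and the difference at 18°C against 27°C was -0.19 ± 0.20 (-0.64 to 0.27, adjusted p = 0.792). Within each array the _s_at value minus this value moved from -2.82 to -2.37 at 27°C to between -1.45 and -1.32 at 18°C, a shift of 1.17 that was chosen after seeing the values and is given as a description. Which transcripts each probe set binds in bambara groundnut was not tested.

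SGF14n was among the steadiest bright probe sets on the array. It gave 12.04, 12.41 and 12.05 at 27°C, 12.06, 12.06 and 12.24 at 23°C and 12.26, 12.33 and 12.26 at 18°C, a range of 0.37 log2 units, and 0.983% of bright probe sets had a smaller one. The 18°C values were above all 23°C values but by a difference of 0.16 ± 0.16 (-0.20 to 0.52, adjusted p = 0.810), and that against 27°C was 0.12 ± 0.16 (-0.24 to 0.48). The bright SGF14G probe set gave 9.46, 10.48 and 10.25 at 27°C, 10.32, 10.35 and 10.45 at 23°C and 10.71, 9.0 and 9.50 at 18°C. Its leaflets at 18°C scattered more than those at 23°C (SD 0.88 and 0.07, n = 3 each), all groups overlapped, and the difference from 23°C to 18°C was -0.63 ± 0.43 (-1.57 to 0.31, adjusted p = 0.683). The dim SGF14G probe set and SGF14M (means 8.16 and 7.16) overlapped in every comparison.

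Across the 29 members, groups did not overlap for 5 (17.2%) at 23°C against 27°C, 6 (20.7%) at 18°C against 27°C and 5 (17.2%) at 18°C against 23°C. Over all probe sets these shares were 14.8%, 18.9% and 16%, so the members did so about as often as the rest of the array. Among the 9 bright members the counts were 2, 2 and 3, where 28.2%, 38.4% and 30.9% of all bright probe sets did not overlap. The SGF14f _s_at probe set is in all 3 counts and was bright only through its values at 23°C and 18°C (mean at 27°C 9.49). SNRK1, counted at 18°C against 23°C, had a mean of 9.75 at 18°C and was bright only through the other groups. Of 6 symbols with more than 1 probe set, 15 pairs of probe sets could be formed. Their differences had the same sign in 8 of 15 pairs at 23°C against 27°C, 5 at 18°C against 27°C and 12 at 18°C against 23°C. Pairs within a symbol share probe sets, and these counts are a description only.

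Other signalling genes, from a list of symbols outside the rule, added 47 probe sets, 8 of them bright. The list held calcium ATPases (SCA1, SCA2) and the annexin ANN11, receptor kinases such as BRI1B, SERK1 and several CRK genes, kinases such as PTI1, PK6 and BIN2, and inositol phosphate kinases, and its pattern also took PTOX, a plastid oxidase and no kinase. At 23°C against 27°C none passed (33 higher, 14 lower, median 0.44), where 0.776% of all probe sets passed, 49.8% were higher and the median was 0. At 18°C against 27°C 1 rose and 46 did not pass (28 higher, 19 lower, median 0.18), which is about the share of 2.13% over all probe sets, of which 47.3% were higher with a median of -0.06. At 18°C against 23°C none passed (30 higher, 17 lower, median 0.10), beside 0.943% passed, 47.6% higher and a median of -0.05 over all probe sets. The riser, a PK3 probe set, gave 13.27, 13.21 and 13.16 at 27°C, 13.82, 14 and 13.73 at 23°C and 14.22, 14.56 and 14.71 at 18°C. Its 3 groups also followed one another without overlap. The rise at 18°C was 1.28 ± 0.15 (0.96 to 1.61, adjusted p = 0.00129), but the constant-prior fit gave adjusted p = 0.171. The other PK3 probe set (mean 9.64) differed by 0.51 ± 0.38 (adjusted p = 0.667).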

How the data were processed

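RNA of 9 leaflets was hybridised to the Affymetrix Soybean GeneChip. The deposited log2 expression values were made by the authors with RMA (version not given in the sources used here) after masking probe pairs that bound the species' own genomic DNA poorly; the threshold behind this table is not stated. Of all values 1434 lie below 0 and 1312 above 16, none of them in the 29 members, so some step besides RMA is unknown and differences may not equal true fold changes. Array medians were 7.89 to 8.11, with a mean shift of -0.12 at 18°C against 27°C. The 1 column of the genomic DNA array held 0 values and was not used. The number of arrays, 3 per temperature, limits the precision.

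All 36578 probe sets were tested without a filter in limma 3.58.1 (R 4.3.3; lmFit and eBayes with trend and robust, two-sided, 9 arrays in 1 model, 6 residual degrees of freedom), with Benjamini-Hochberg adjustment over all probe sets and calls at adjusted p under 0.05. Intervals are 95% and unadjusted. The script was tested on simulated data. The members, lists and the choice of the variance-trend fit were made with earlier results of these data known. The rule for named genes took called members, the bright members with the largest differences (here all 9) and called genes of the other signalling list. Replicate numbers were not taken to pair the arrays, because no label ties them to plants. Same-numbered deviations correlated at -0.0128 to 0.0128 over all probe sets and at -0.0327 to 0.207 over bright ones, with 1 of 9 pairs above 0.1. Differently numbered deviations correlated at -0.181 to 0.123 over bright ones. The ranges overlap, so these correlations do not settle whether the numbers follow plants. Each of the 3 arrays of a temperature came from 1 leaflet of a different plant, so p-values cover plant and leaflet spread together. The same 3 plants were sampled at every temperature, while the main fit treated the 9 arrays as independent. Alternatives were the constant-prior fit, the methods' t-test and thresholds, other scalings, a filter on dim probe sets, fewer arrays and a replicate block. Probe sequences and genome positions were not used here.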

Additional observations from a re-analysis of the deposited data

How the results depend on the processing

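The count of 0 called members held in every alternative and comparison but 1, the filter that tested bright probe sets alone, under which the SGF14f _s_at probe set was called at 18°C against 27°C (1 member); it entered that test only through its values at 23°C and 18°C, so the filter depended on the change tested. With the replicate block 0 members were called in each comparison; the lowest adjusted p was 0.374, 0.112 and 0.131, and the block changed no call of a member. Leaving out any 1 array gave 0 members in each comparison. Of the other signalling list, PK3 at 18°C against 27°C was not called in the constant-prior fit or the methods' t-test (0 in each, adjusted p = 0.171 and 0.106) and was called in every fit without 1 array (1 to 1). PK3 was also called among bright probe sets alone at 23°C against 27°C (1) and 18°C against 23°C (1), and in the latter after centring of the arrays (1). Uncalled members have no called direction; of the 29, 2 changed sign at 18°C against 27°C and 1 at 18°C against 23°C after centring. More changed sign when 1 array was left out, up to 6 at 23°C against 27°C (without 27°C replicate 3), 4 at 18°C against 27°C (without 18°C replicate 2) and 7 at 18°C against 23°C (without 18°C replicate 3).

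Counts over all probe sets, 284, 778 and 345 in the 3 comparisons, fell to 1, 38 and 2 in the constant-prior fit, 1, 0 and 3 in the methods' t-test and 64, 249 and 96 at the methods' thresholds, and came to 524, 1322 and 798 among bright probe sets alone. With only the 6 arrays compared they were 159 at 23°C against 27°C and 160 at 18°C against 23°C. Without single arrays they ranged from 96 to 248, 387 to 857 and 109 to 265. With the replicate block they were 230, 698 and 282. Centring of the arrays changed the split of calls at 18°C against 27°C from 469 higher and 309 lower to 613 and 235, and at 18°C against 23°C from 201 and 144 to 292 and 99. The cause of these shifts was not tested. The 20 dim members had a median replicate SD of 1.32, beside 0.29 for the 9 bright ones.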
